A study of Danio rerio with 10 samples.

Results

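Genes for carriers of amino acids, neurotransmitters and peptides were followed in sorted cells of the zebrafish (Danio rerio) pituitary. They are the genes of the table whose names fall in the solute carrier families slc1, slc3, slc6, slc7, slc15, slc17, slc32, slc36, slc38 and slc43. The glial glutamate carriers slc1a2a, slc1a2b, slc1a3a and slc1a3b were left out. The rule took 60 of 14781 genes, and it used names only. One of them, slc7a6os, is named for its position beside slc7a6 and is not a carrier, which leaves 59 carrier genes. No gene of the slc36 family was analysed here.

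All fish were adult males of the TL strain, 12 months old, and every one had received 10 µL of β-Ala-Lys-Nε-AMCA at 4.6 mM, a dipeptide joined to a blue coumarin dye, 3 hours before dissection. Pituitaries from 5 pools of 7 fish were dissociated, and the cells that carried the dye (AMCA-positive, labelled pituicytes, the glia of the posterior lobe) were sorted from the rest (AMCA-negative, labelled non-pituicytes). Each group has 5 libraries, 2 on plate 1 and 3 on plate 2, with 4250948 to 6068781 counts per library. The labels do not say which libraries share a pool, so p-values measure the spread between these libraries.

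Carriers of these families set which amino acids, peptides and transmitters a cell can take up or release. Members of slc15 move dipeptides and tripeptides with protons, and the mammalian protein of slc15a2 is known to take up the dye dipeptide given here. Several members of slc7 need a heavy chain from slc3 to reach the membrane and exchange one amino acid for another. In the brain, glia use slc6 and slc38 carriers to clear GABA, glycine and taurine and to pass glutamine to neurons.

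The sort separated libraries of different makeup. Astroglial markers were higher for 10 of 11 tested genes and took 0.295% to 0.683% of AMCA-positive counts against 0.00388% to 0.0223% of AMCA-negative counts, in which slc1a3a and aqp4 were at 0. Leukocyte markers were higher for 9 of 12 tested and took 1.26% to 3.44% against 0.0377% to 0.167%. Mural cell and fibroblast markers were higher for 7 of 9, endothelial markers for 4 of 6 and epithelial markers for 4 of 6. Red cell markers were lower for 9 of 9 and took 0.0274% to 0.0873% against 12.5% to 23.7% of counts. Endocrine cell markers were higher for 2 of 9 and took 1.02% to 3.60% against 0.209% to 4.57%. The AMCA-positive libraries thus hold transcripts of more cell types than the label pituicytes names. In such bulk samples, fewer cells of a type and less RNA per cell cannot be told apart. At least 1 count was found for 11308 to 11817 genes in AMCA-positive and 7079 to 9056 in AMCA-negative libraries.

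Both heavy chains of amino acid exchangers, 1 of 3 tested light chains and a carrier of large neutral amino acids stood higher in the dye-positive libraries. So did an orphan carrier and a pair of glutamine carriers. A system A carrier, a taurine carrier and 2 further carriers stood higher in the negative ones. Calls of slc3a2b (heavy chain), slc38a5b (glutamine carrier) and slc6a6b (taurine carrier) were lost in 7, 6 and 4 of 10 fits without 1 library. Of the 60 genes, 4 had no count, 24 did not reach the edgeR filter's count level in enough libraries and 32 were tested. Among the 32, 7 (21.9%) had higher and 4 (12.5%) lower levels in the AMCA-positive group, and 21 did not pass (plate-adjusted quasi-likelihood test in edgeR, with p adjusted by Benjamini-Hochberg over all genes and a threshold of 0.05). Over all 9094 genes tested 13.1% were higher and 7.06% lower, 20.1% in either direction. The higher genes were slc3a2a, slc3a2b, slc7a7, slc38a3a, slc38a5b, slc43a2b and slc6a16b, and the lower ones slc38a2, slc43a3a, slc6a6b and slc6a13l. The edgeR filter asked for enough counts in as many libraries as a group holds, 5. Of the called genes, slc38a3a, slc43a2b and slc6a16b met it through the AMCA-positive group alone, and slc43a3a through the AMCA-negative group alone. For slc3a2a, slc7a7, slc6a13l and slc6a6b, part of the other group's libraries fell short of the count level. These genes too needed the group where they were high to meet the filter. Genes high in only some AMCA-negative libraries, such as slc7a4 and slc6a9, could not be tested. The median log2 fold change was 0.99 over the 32 genes and 0.51 over all genes tested. The groups were apart with the positive one on top for 8 of the 32 genes (18.4% of all genes tested), and with the negative one on top for 5 (6.49%). Together the 60 genes took 0.168% to 0.402% of AMCA-positive and 0.0916% to 0.142% of AMCA-negative counts. These unscaled shares did not overlap between the groups. Levels are given as CPM, a library's counts scaled to its edgeR library size, and values listed in fives run from replicate 1 to replicate 5. On that scale the groups overlapped for the 60 genes together. AMCA-positive replicate 2 held 8921 of their counts at a library size of 6042585, and AMCA-negative replicate 4 held 8333 at 5328141.

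**Figure D1:**
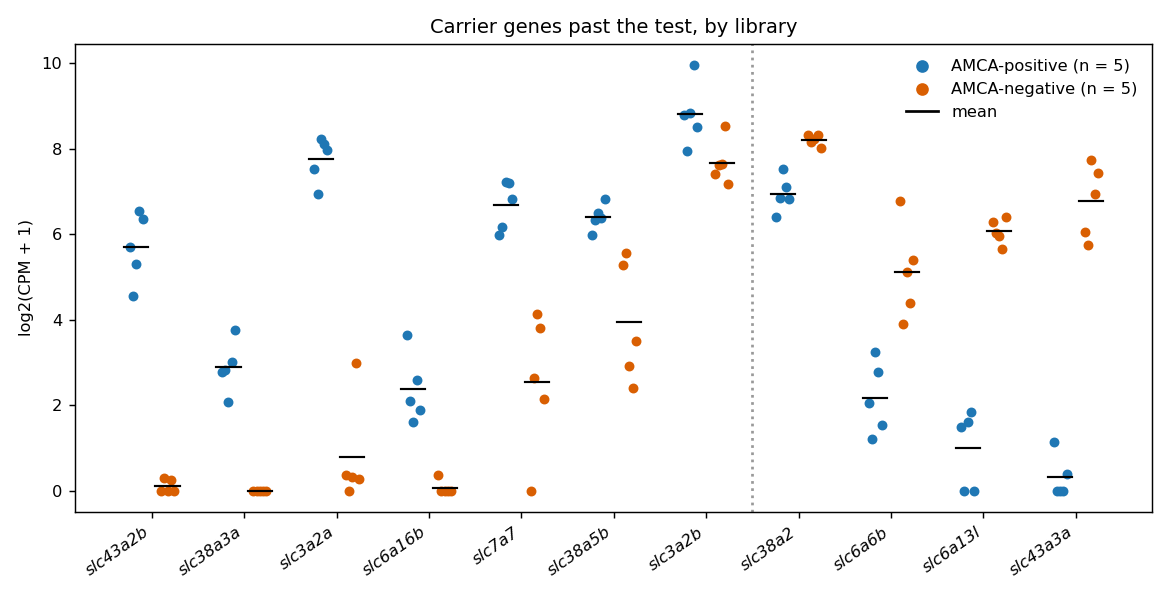
Level of the 11 genes past the test, as log2(CPM + 1), in each of 5 AMCA-positive (blue) and 5 AMCA-negative (orange) libraries, with black lines at the group means; 7 higher genes stand left of the dotted line and 4 lower genes right of it. The groups overlap in slc3a2b and are apart in the other 10 genes.

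Of the oligopeptide carriers, slc15a2, the high-affinity dipeptide carrier of brain and kidney in mammals, was present in every AMCA-positive library, at 13.9, 17.7, 15.0, 25.8 and 26.8 CPM. AMCA-negative libraries held 0.280, 0.437, 0, 14.6 and 0 CPM. Replicate 4 of the negative group thus reached the level of the positive ones, and the other 4 held 0 to 2 counts. The log2 fold change was 3.32 ± 1.65 (SE, 5 libraries a group; edgeR adjusted p = 0.209), which did not pass. Without AMCA-negative replicate 4 it passed, with a log2 fold change of 6.86 (edgeR adjusted p = 0.00727). It passed in only that 1 of 10 cases with 1 library left out (edgeR adjusted p up to 0.318 in the others). With all libraries slc15a2 passed under limma with quality weights, though not under DESeq2's Wald test. Its intestinal relative slc15a1b had 12 counts, all in AMCA-positive replicate 4.

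The lysosomal carrier of histidine and small peptides, slc15a4, was at 24.7, 54.4, 57.2, 32.1 and 28.6 CPM in AMCA-positive libraries. Among AMCA-negative libraries it stood at 1.12, 64.6, 193, 31.3 and 0.200 CPM, both above and below the whole positive range. Its log2 fold change was -0.46 ± 1.25 (SE, 5 libraries a group; edgeR adjusted p = 0.854), and the sign turned without AMCA-negative replicate 2 or 3.

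The heavy chains of amino acid exchangers differed between the groups by unequal amounts. Both zebrafish copies of the mammalian Slc3a2 gene, which encodes the chain known as CD98 or 4F2, were higher in AMCA-positive libraries. Levels of slc3a2a were 183, 121, 300.5, 277 and 249.9 CPM there and 0.280, 0, 0.243, 6.94 and 0.200 CPM in AMCA-negative libraries, which were near 0 in 4 and highest in replicate 4. On the log2 scale it differed by 7.599 ± 1.15 (SE, 5 libraries a group; edgeR adjusted p = 0.00116). In the negative group 37 of its counts were in replicate 4, without which the log2 difference was 10.03. The copy slc3a2b was abundant in both groups, at 442, 246, 458, 992 and 361 CPM in positive libraries against 169, 195, 198, 371 and 143 CPM in AMCA-negative libraries, so that the groups overlapped. The fitted difference for slc3a2b was 1.17 ± 0.37 (SE, 5 libraries a group; edgeR adjusted p = 0.0466). That call was lost in 7 of 10 cases when 1 library was left out (AMCA-positive replicates 1, 3 and 4, AMCA-negative replicates 1, 2, 3 and 5), with edgeR adjusted p up to 0.135.

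Among light chains, slc7a7, which in mammals exchanges cationic for neutral amino acids and is known from macrophages, was at 62.2, 70.5, 148, 146 and 112 CPM in AMCA-positive libraries. In AMCA-negative libraries it was at 0, 5.24, 16.6, 12.950 and 3.41 CPM, all below the positive ones. The difference for slc7a7 on the log2 scale was 4.01 ± 0.89 (SE, 5 libraries a group; edgeR adjusted p = 0.00797). Leukocyte markers moved the same way, as given above, and their part in this difference was not tested. The neutral amino acid exchanger slc7a8a was at 308, 212, 212, 389 and 163 CPM against 187, 13.3, 83.5, 61.2 and 72.1 CPM. The groups overlapped through AMCA-negative replicate 1, and the log2 fold change was 1.64 ± 0.57 (SE, 5 libraries a group; edgeR adjusted p = 0.0697). It passed in 2 of 10 cases with 1 library left out, AMCA-negative replicate 1 or replicate 2 (edgeR adjusted p = 0.0105 and 0.0306). In the others slc7a8a did not pass (edgeR adjusted p up to 0.171). With all libraries slc7a8a passed under DESeq2's Wald test and with neighbouring wells as a block, though not under limma with quality weights. The large neutral amino acid exchanger slc7a5 was low in every AMCA-positive library, at 4.58 to 9.31 CPM. In AMCA-negative libraries it reached 9.82 CPM in replicate 5 and at most 1.97 CPM in the others, and its log2 fold change was 1.71 ± 1.44 (SE, 5 libraries a group; edgeR adjusted p = 0.486). Without AMCA-negative replicate 5 slc7a5 had a log2 fold change of 4.55 and an edgeR adjusted p of 0.04995. It passed in only that 1 of 10 cases with 1 library left out (edgeR adjusted p up to 0.635 in the others). With all libraries slc7a5 passed under limma with quality weights, though not under DESeq2's Wald test. The light chain slc7a6 had 4 counts in AMCA-positive and none in AMCA-negative libraries. Its neighbour slc7a6os, at 25.6 to 33.8 CPM in AMCA-positive and 0 to 106 CPM in AMCA-negative libraries, did not pass (edgeR adjusted p = 0.670). The sources used here do not state whether reads were counted by strand.

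**Figure D2:**
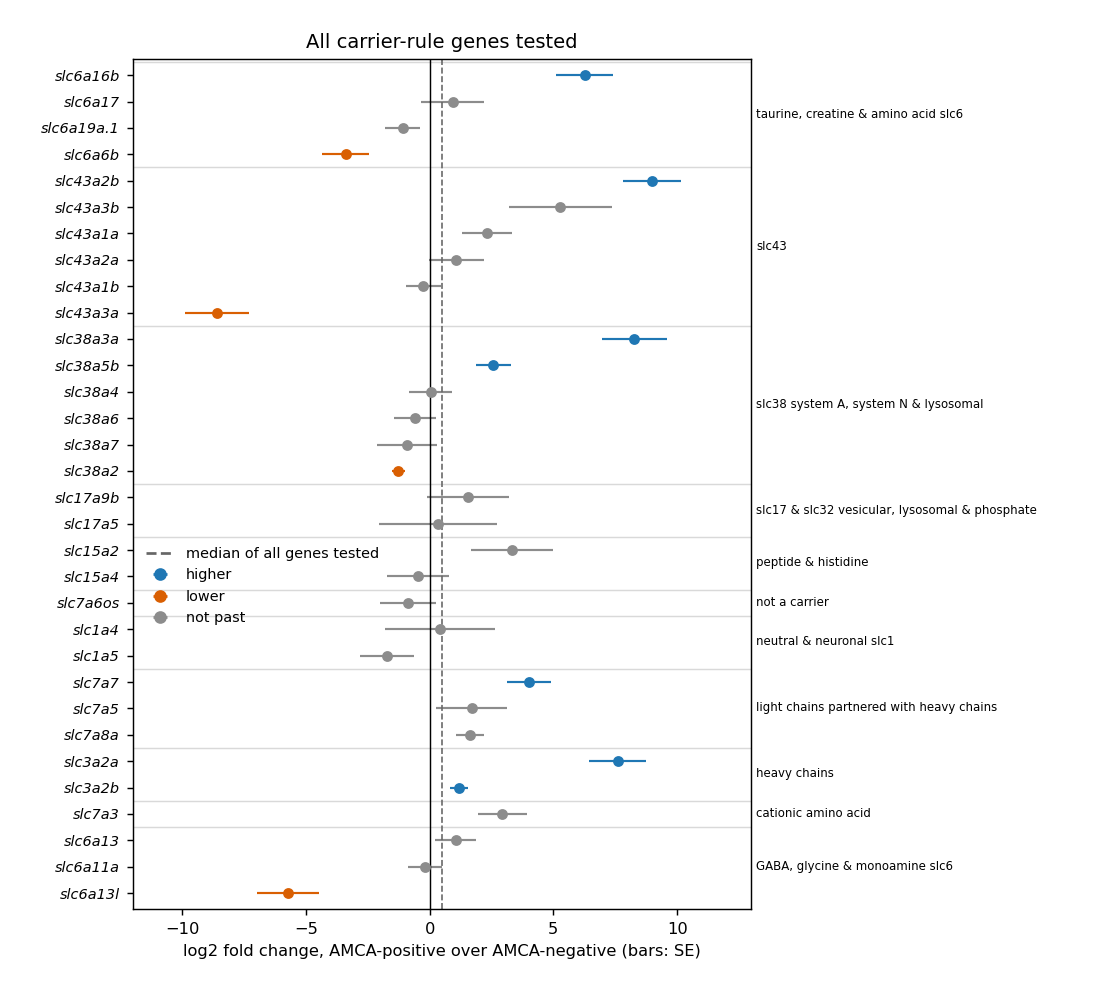
Fitted log2 fold change (AMCA-positive over AMCA-negative) with its SE for all 32 genes tested, grouped by role, with higher genes in blue, lower genes in orange, genes that did not pass in grey and the median of all genes tested (0.51) as a dashed line. The slc43 and slc38 groups hold genes in both directions; fitted values of slc38a3a (no AMCA-negative count), slc43a2b and slc6a16b (2 and 1 counts) depend on the prior count.

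All 6 slc43 genes were tested, and 1 was higher and 1 lower. In mammals slc43a1 and slc43a2 carry branched-chain and other large neutral amino acids, and slc43a3 carries purine bases. The copy slc43a2b was at 51.3, 22.5, 38.8, 92.8 and 81.1 CPM in AMCA-positive libraries. AMCA-negative libraries held 2 counts in all, which gave a ratio of 649.7-fold (95% counting interval 179.6 to 5369) with an edgeR adjusted p of 0.000394. The other copy, slc43a2a, was at 178, 146, 264, 419.7 and 267 CPM against 50.4, 247, 0, 239 and 55.1 CPM. It was absent from the counts of AMCA-negative replicate 3, the groups overlapped, and its log2 fold change was 1.07 ± 1.104 (SE, 5 libraries a group; edgeR adjusted p = 0.578).

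The opposite held for slc43a3a, at 1.21, 0, 0, 0 and 0.316 CPM in positive libraries against 65.5, 52.6, 213, 122 and 173 CPM in negative ones. No count of it was found in 3 AMCA-positive libraries. This was a log2 difference of -8.59 ± 1.31 (SE, 5 libraries a group; edgeR adjusted p = 0.00120), and without AMCA-positive replicate 1 it was -10.50. The copy slc43a3b was at 87.5, 95.5, 114, 125 and 49.9 CPM in AMCA-positive libraries. Of the negative ones, replicate 1 held 57.7 CPM and the others at most 1.50 CPM. For slc43a3b the log2 difference was 5.29 ± 2.10 (SE, 5 libraries a group; edgeR adjusted p = 0.112), and without AMCA-negative replicate 1 it was 7.99 (edgeR adjusted p = 0.00313). It passed in only that 1 of 10 cases with 1 library left out (edgeR adjusted p up to 0.224 in the others). With all libraries slc43a3b passed under DESeq2's Wald test, limma with quality weights and neighbouring wells as a block. Plate 2 alone passed it too, and plate 1 alone did not. For slc43a1a the AMCA-positive libraries (12.9 to 42.2 CPM) all lay above the AMCA-negative ones (0.243 to 10.3 CPM), but the gene did not pass (2.32 ± 1.02 as log2 difference with SE; edgeR adjusted p = 0.152). The copy slc43a1b was at 15.5 ± 2.52 CPM (AMCA-positive) against 18.9 ± 7.18 CPM (AMCA-negative; SD, n = 5 each), with overlap, and did not pass (edgeR adjusted p = 0.856). In the RefSeq annotation of another build (GRCz12tu) slc43a3a overlaps the coding gene cabp2a, and its counts could include reads of that gene. There slc3a2a and slc43a2b overlap long noncoding RNA genes, and slc6a9 overlaps the coding gene ccdc24. Uncharacterised coding genes overlap slc43a1b and slc38a4, and the coding gene blmh overlaps slc6a4a.

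**Figure D3:**
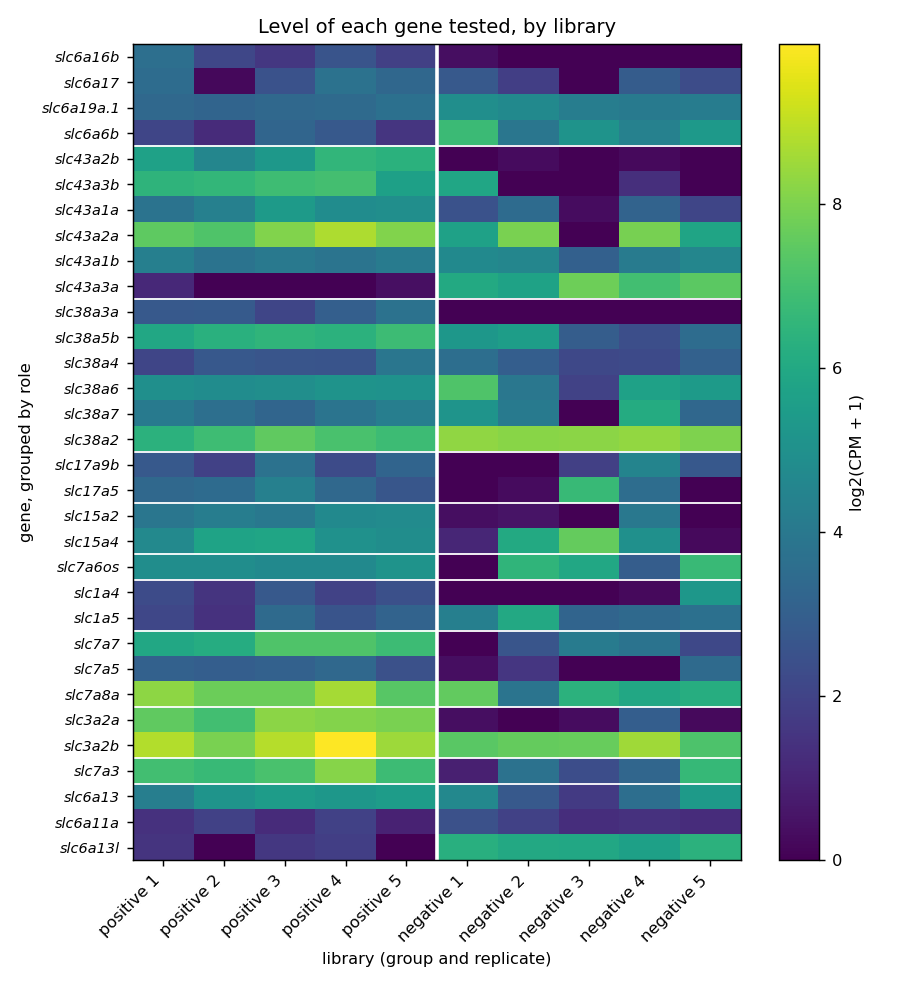
Level of each of the 32 genes tested, as log2(CPM + 1) on the colour scale, in every library (columns, 5 AMCA-positive then 5 AMCA-negative), with genes in rows grouped by role and white lines between roles. The AMCA-positive columns differ less among themselves than the AMCA-negative columns, which differ gene by gene, as in slc43a3b, slc15a4 and slc43a2a.

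Of the slc38 carriers, 6 were tested, 2 were higher and 1 was lower. Glutamine carriers of system N, which work in both directions, were the higher ones. Levels of slc38a5b were 62.1, 79.3, 89.4, 82.7 and 112 CPM in positive libraries against 37.8, 46.1, 6.57, 4.32 and 10.4 CPM in AMCA-negative libraries, without overlap. The log2 fold change was 2.58 ± 0.70 (SE, 5 libraries a group; edgeR adjusted p = 0.0244). Within plate 1 it was 0.56 and within plate 2 3.74 for slc38a5b, a difference that was not tested. The call was lost in 6 of 10 cases when 1 library was left out (AMCA-positive replicates 3, 4 and 5, AMCA-negative replicates 3, 4 and 5), and without the plate term. The other, slc38a3a, which mammalian astrocytes use to release glutamine, was low but present in all AMCA-positive libraries, at 5.90, 6.12, 3.23, 7.02 and 12.5 CPM. No AMCA-negative library had a count. Against a floor of 3 counts over that group it was at least 51.9-fold higher (edgeR adjusted p = 0.00454). The gene slc38a3a met the edgeR filter through the AMCA-positive libraries alone.

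The system A carrier slc38a2, which takes up small neutral amino acids and is induced by amino acid shortage in mammalian cells, was lower. AMCA-positive libraries were at 83.9, 114, 183, 136 and 113 CPM and AMCA-negative libraries at 319, 287, 297, 321 and 260.3 CPM. The groups did not overlap, and the negative libraries lay close together. The log2 difference for slc38a2 was -1.26 ± 0.26 (SE, 5 libraries a group; edgeR adjusted p = 0.00526), the smallest SE among the 32 genes. The remaining tested members slc38a4, slc38a6 and slc38a7 did not pass, with log2 fold changes of 0.04 ± 0.86, -0.59 ± 0.84 and -0.91 ± 1.19 (SE). None of these 3 had groups apart.

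Carriers of the slc6 family, known for uptake coupled to sodium, had 7 members tested, of which 1 was higher and 2 lower. The gene named slc6a13l, called slc6a22.2 in RefSeq, was at 1.82, 0, 2.06, 2.59 and 0 CPM in positive libraries against 77.5, 64.0, 61.1, 49.5 and 83.6 CPM in AMCA-negative libraries. All negative libraries held it at a similar level, and its log2 fold change was -5.71 ± 1.25 (SE, 5 libraries a group; edgeR adjusted p = 0.00750). The GABA and taurine carrier slc6a13 was at 18.2, 34.9, 44.0, 38.002 and 44.2 CPM against 24.1, 5.90, 2.19, 11.1 and 41.7 CPM, with overlap, and did not pass (1.05 ± 0.84 as log2 difference with SE; edgeR adjusted p = 0.460). The taurine carrier slc6a6b was at 3.18, 1.32, 8.53, 5.80 and 1.89 CPM in positive libraries against 109, 13.976, 33.8, 19.9 and 41.1 CPM in AMCA-negative libraries, without overlap. On the log2 scale slc6a6b differed by -3.40 ± 0.97 (SE, 5 libraries a group; edgeR adjusted p = 0.0290), and the call was lost without AMCA-positive replicate 1, 2, 4 or 5. Without AMCA-negative replicate 1 the difference for slc6a6b was -2.57. Red cell markers were higher in the same negative libraries, and their part in the levels of slc6a13l, slc6a6b, slc38a2 and slc43a3a was not tested.

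The orphan carrier slc6a16b was at 11.5, 3.31, 2.06, 5.04 and 2.68 CPM in AMCA-positive libraries. AMCA-negative libraries held 1 count, a ratio of 112-fold (95% counting interval 19.8 to 4439.8) with an edgeR adjusted p of 0.00312. The vesicular neutral amino acid carrier slc6a17 and the GABA carrier slc6a11a did not pass, with log2 fold changes of 0.93 ± 1.27 and -0.20 ± 0.68 (SE). The neutral amino acid carrier slc6a19a.1 lay at 8.27 to 11.7 CPM in AMCA-positive and 16.0 to 29.1 CPM in AMCA-negative libraries. These ranges did not overlap, but the gene did not pass (-1.08 ± 0.70 as log2 difference with SE; edgeR adjusted p = 0.349).

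The cationic amino acid carrier slc7a3, for arginine and lysine, was at 122, 103, 137, 283 and 113 CPM in AMCA-positive libraries. AMCA-negative libraries were at 0.840, 12.4, 4.14, 8.63 and 101 CPM, so the groups did not overlap although negative replicate 5 came close. Its log2 fold change was 2.94 ± 1.00 (SE, 5 libraries a group; edgeR adjusted p = 0.0626), and without AMCA-negative replicate 5 it was 4.45 (edgeR adjusted p = 0.00470). It passed in only that 1 of 10 cases with 1 library left out (edgeR adjusted p up to 0.149 in the others). With all libraries slc7a3 passed under DESeq2's Wald test and with neighbouring wells as a block, though not under limma with quality weights. The small neutral amino acid carrier slc1a5 was at 3.33, 1.65, 10.00, 5.04 and 8.05 CPM against 18.5, 64.0, 8.28, 9.57 and 11.6 CPM. The groups overlapped, and the fitted log2 difference was -1.72 ± 1.08 (SE, 5 libraries a group; edgeR adjusted p = 0.327). The related slc1a4 was at 3.78, 1.82, 5.88, 2.90 and 4.42 CPM against 0, 0, 0, 0.188 and 37.7 CPM and did not pass (edgeR adjusted p = 0.928). Its AMCA-negative counts came almost wholly from replicate 5, and without that library it passed as higher (log2 fold change 5.67, edgeR adjusted p = 0.00648). That was 1 of 10 cases with 1 library left out (edgeR adjusted p up to 0.979 in the others). The lysosomal sialic acid and aspartate carrier slc17a5 was at 9.23, 10.3, 19.3, 9.31 and 5.37 CPM in AMCA-positive libraries. In AMCA-negative ones it ranged from 0 to 103 CPM, and the fitted log2 difference was 0.35 ± 2.38 (SE, 5 libraries a group; edgeR adjusted p = 0.947). The vesicular nucleotide carrier slc17a9b ranged from 2.81 to 12.3 CPM in AMCA-positive and 0 to 21.4 CPM in AMCA-negative libraries and did not pass (edgeR adjusted p = 0.593).

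Among carriers of neuronal transmitters, the vesicular monoamine carrier slc18a2, outside the rule, had 406 AMCA-positive and 63 AMCA-negative counts. The vesicular carrier slc6a17 had 241 and 87. Neither passed (edgeR adjusted p = 0.449 and 0.689). The GABA metabolism gene gad2 stood at 68.5 against 40.0 CPM and did not pass (edgeR adjusted p = 0.431). The neuronal carriers that follow had few counts in either group. The vesicular GABA and glycine carrier slc32a1 had 7 AMCA-positive and 32 AMCA-negative counts, spread over 5 of the 10 libraries. Vesicular glutamate carriers slc17a6a, slc17a6b, slc17a7a and slc17a8 had 5, 14, 23 and 1 counts over all libraries. The dopamine carrier slc6a3, the serotonin carrier slc6a4b and the glutamate carriers slc1a7b and slc1a9 had none, which allows up to 0.0928 CPM in the AMCA-positive and 0.133 CPM in the AMCA-negative group (3 counts over the group, counting error only). The other serotonin carrier copy, slc6a4a, had 24, 0, 5, 30 and 13 counts in AMCA-positive and 3, 1, 0, 0 and 0 in AMCA-negative libraries, up to 4.58 CPM, so the groups overlapped. It reached the edgeR filter's level in too few libraries and was called higher by DESeq2's Wald test. Neuronal markers, 6 of them tested, had 0 higher and 0 lower and took 0.0117% to 0.0183% of AMCA-positive and 0.00391% to 0.0176% of AMCA-negative counts. For 19 of the 24 genes with counts that were not tested, over 50% of the counts came from 1 library. The 24 also include slc1a1, slc1a6, slc1a7a, slc1a8b, slc6a1a, slc6a1b, slc6a5, slc6a15, slc6a18, slc6a19b, slc7a2, slc38a9 and slc38a11, with 3 to 151 counts in all. Examples of counts from 1 library are slc38a8 with all 46 counts in AMCA-negative replicate 2, slc7a4 with 234 of 310 counts in AMCA-negative replicate 4 and the glycine carrier slc6a9 with 170 of 298 counts in AMCA-negative replicate 2.

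Genes that share a number and differ by a and b, and the pair slc6a13 and slc6a13l, were set against each other within each library. A ratio of counts from the same library does not depend on its scaling. Here 0.5 was added to each count, so a gene with no count left the ratio resting on that 0.5 and on depth. This was so in part of the libraries for slc3a2a, slc43a2a, slc43a2b, slc43a3a, slc43a3b and slc6a13l. RefSeq names slc6a13l as slc6a22.2, so slc6a13 and slc6a13l are not shown to be copies of 1 gene. In 5 pairs both genes were tested. In 4 of them the ratio differed between the groups by an exact two-sided permutation test (p = 0.00794, the smallest it can give, 0.00992 adjusted over the 5). Each of the 4 pairs holds a gene whose groups were already apart, slc3a2a, slc43a1a, slc43a3a or slc6a13l. Of these, slc3a2a, slc43a3a and slc6a13l needed the group where they were high to meet the edgeR filter. The ratio tests are therefore not separate evidence about the pairs. With libraries exchanged only within plates the exact p of these 4 pairs was 0.0167, again the smallest possible, and 0.0208 adjusted. Both ways of exchange treat the libraries as unpaired, as the labels do not say which share a pool. For slc43a2a to slc43a2b the exact permutation p was 0.0476, adjusted 0.0476, and within plates 0.0667, so that difference did not hold. The log2 ratio of slc3a2a to slc3a2b was -1.05 ± 0.53 in the positive and -8.63 ± 1.84 in the negative group (SD, n = 5 each). That of slc43a3a to slc43a3b was -8.90 ± 2.19 and 7.38 ± 4.43, so the copy with more counts changed with the group, in all 5 libraries of each. For slc6a13 to slc6a13l it was 5.87 ± 2.83 and -2.60 ± 1.48, again with the same sign in all libraries of a group. The ratio of slc43a1a to slc43a1b was 0.66 ± 0.76 and -2.34 ± 1.35, and that of slc43a2a to slc43a2b 2.23 ± 0.49 and 7.38 ± 4.15. AMCA-negative replicate 3 had no count of either slc43a2 copy, and without it the ratio of slc43a2a to slc43a2b was 9.22 in AMCA-negative libraries (exact permutation p = 0.0159, all libraries exchanged). How similar the genes of a pair are was not measured here, and reads shared by a pair could have been split.

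**Figure D4:**
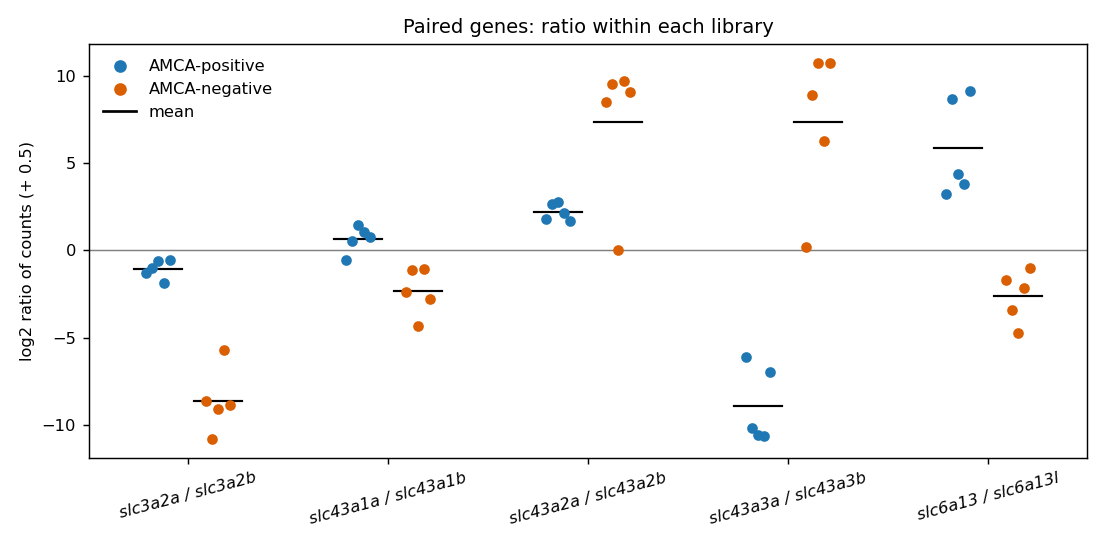
Log2 ratio of the counts of each pair of genes (0.5 added to each count) within every AMCA-positive (blue) and AMCA-negative (orange) library, with black lines at the group means. In slc43a3a to slc43a3b and slc6a13 to slc6a13l the groups lie on opposite sides of 0; the AMCA-negative point at 0 for slc43a2a to slc43a2b is a library with no count of either.

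Other genes of amino acid handling were read in lists chosen by function. Over all genes tested, 13.1% were higher and 7.06% lower, the shares to set beside every list below. In lists this short, 1 to 3 calls are not a result about the list. Of 10 tested genes of the response to amino acid shortage 2 were higher, 0 lower and 8 did not pass. The higher ones were the transcription factor genes cebpb, at 3344 ± 785 CPM (AMCA-positive) against 1227 ± 882 CPM (AMCA-negative; SD, n = 5 each), and atf4a, at 199 ± 72.7 CPM (AMCA-positive) against 82.9 ± 51.8 CPM (AMCA-negative; SD, n = 5 each). Their log2 fold changes were 1.56 ± 0.38 and 1.44 ± 0.41 (SE; edgeR adjusted p = 0.0136 and 0.0293), and atf4a lost its call in 4 of 10 cases when 1 library was left out (AMCA-positive replicates 1, 2 and 3 and AMCA-negative replicate 3). The kinase-like gene trib3 stood at 689 against 103 CPM and did not pass (edgeR adjusted p = 0.0563). Nor did asns, chac1 and sesn2, with log2 fold changes of 0.41, 0.38 and -1.65 (edgeR adjusted p = 0.794, 0.416 and 0.542). Serine, glycine and proline synthesis had 2 of 7 higher and 0 lower. Here phgdh, the first enzyme of serine synthesis, was at 49.0 ± 18.5 CPM (AMCA-positive) against 0.480 ± 1.07 CPM (AMCA-negative; SD, n = 5 each), a fitted log2 difference of 7.71 ± 1.60 (SE; edgeR adjusted p = 0.00569). All 11 AMCA-negative counts of phgdh were in replicate 2, without which the fitted difference was 11.08. With no AMCA-negative count left, that value depends on the prior count. The proline synthesis gene pycr1b was at 5.31 against 0.292 CPM (edgeR adjusted p = 0.0281). Without AMCA-negative replicate 1 the log2 difference of pycr1b was 5.02 in place of 4.16. Its call was lost in 4 of 10 cases when 1 library was left out (AMCA-positive replicates 2, 3 and 5 and AMCA-negative replicate 3). The median log2 fold changes of these lists were 0.87 and 2.95, beside 0.51 for all genes tested.

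Of the creatine and taurine list 1 of 3 was higher, the brain creatine kinase gene ckbb, at 987 ± 228 CPM (AMCA-positive) against 66.5 ± 67.1 CPM (AMCA-negative; SD, n = 5 each) (log2 fold change 4.06 ± 0.86, SE; edgeR adjusted p = 0.00619). Genes of amino acid sensing on the lysosome had 0 of 9 higher and 3 lower, beside 13.1% and 7.06% of all genes tested. These were flcn, which encodes folliculin, and lamtor3 and lamtor2, which encode subunits of the lysosomal Ragulator complex. Their log2 fold changes were -2.52 ± 0.53, -1.96 ± 0.44 and -1.82 ± 0.41 (SE; edgeR adjusted p = 0.00599, 0.00816 and 0.00824). In lamtor3 the groups overlapped, with AMCA-positive replicate 2 at 72.3 CPM and AMCA-negative replicate 5 at 67.5 CPM. The glutathione list had 1 of 6 lower, gclc, the limiting enzyme of glutathione synthesis, at 38.6 against 120.0 CPM, with overlap (edgeR adjusted p = 0.0245). The call of gclc was lost in 5 of 10 cases when 1 library was left out (AMCA-positive replicates 1, 2, 3 and 4 and AMCA-negative replicate 1). Of 4 further amino acid carriers tested 1 was lower, the aromatic amino acid carrier slc16a10, at 14.3 against 61.1 CPM (edgeR adjusted p = 0.0175). That call was lost in 2 of 10 such cases (AMCA-positive replicates 2 and 4). None of 5 genes of dipeptide breakdown and none of 3 of GABA metabolism passed edgeR (unadjusted p under 0.05 in 1 of 5 and 0 of 3). The median log2 fold change was 3.86 in the creatine and taurine list, -0.76 in the lysosomal list and -0.14 in the glutathione list. It was 0.51 in the list of further carriers, 1.54 in that of dipeptide breakdown and 0.75 in that of GABA metabolism. The dipeptidase gene cndp2 was at 106 against 33.1 CPM, with overlap, and pepd at 93.957 against 7.95 CPM, without.

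The spread between libraries was wider in the negative group. Of the 32 genes tested, 15 (46.9%) were missing from at least 1 AMCA-negative library and 2 (6.25%) from at least 1 AMCA-positive library, beside 50.6% and 2.65% of all genes tested. The median SD of log2(CPM + 1) was 0.54 over AMCA-positive and 1.30 over AMCA-negative libraries for these genes, and 0.53 and 1.56 for all genes tested. For all 11 genes past the test the direction was the same within plate 1 and within plate 2. Plate 1 alone, with 2 libraries per group, passed 0 of the 11, and plate 2 alone 8. Without AMCA-negative replicates 3 and 4, the libraries with the fewest genes detected, again 7 genes were higher and 4 lower. Of these, 9 were the same as with all libraries, slc15a2 and slc17a5 were gained, and slc38a5b and slc3a2b were lost. The authors' deposited table called 9 of the 60 genes higher and 7 lower at their adjusted p-value, and these included all 7 and all 4 called here. The further calls in the authors' deposited table were slc43a1a and slc7a8a as higher and slc1a5, slc6a19a.1 and slc6a1a as lower.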

How the data were processed

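Whole-transcriptome libraries of sorted pituitary cells were analysed, 5 AMCA-positive and 5 AMCA-negative. The authors deposited raw counts per gene, normalised signal (counts divided by a size factor, with its group means rounded to a score), log2 fold changes with a test score, and p-values, per the file headers. HTSeq, DESeq2, cutadapt, TopHat2 2.0.13 and the build danRer10 appear in the submitters' processing notes. The sources used here do not state the strand setting.

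The deposited raw counts were tested with edgeR 4.0.16 (quasi-likelihood, robust, TMM scaling, filterByExpr on group, plate as a term) over all genes, with Benjamini-Hochberg adjustment and a threshold of 0.05. The SE is the log2 fold change divided by the root of F. Alternatives used DESeq2 1.42.0, limma 3.58.1, other filters and scalings, no plate term, each plate alone, neighbouring wells as a block, and each library left out. Exact permutation tests of ratios used scipy 1.17.1. The ratio tests with their exchange within plates, the filter told of the design and the fit without 2 libraries together were added after the data were seen. Members and lists were chosen with earlier results of these data known. Genes named were up to 12 called changes per direction (mean of 20 CPM or more where higher), the most abundant gene of each role, preset carriers, and up to 3 genes per related list by adjusted p. The other genes named, slc38a3a and slc6a16b among them, were chosen after their values were seen. Intervals (95%, exact) and floors of 3 counts cover counting error only. Log2 changes of 8, 4, 2 and 1 between these groups were simulated, with 8422 genes tested in all. Of them, 44 of 47 (93.6%), 21 of 46 (45.7%), 4 of 45 (8.89%) and 0 of 49 (0%) were recovered. Of the unchanged genes, 4 of 8235 were called. The simulation gave both groups the same dispersion and had no plate effect. The real AMCA-negative libraries varied more than the AMCA-positive ones, so these rates may not hold for them.

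Gene symbols were looked up in RefSeq, in which 57 were current, 2 were synonyms and 1, slc7a3, was not found. That table is of another build (GRCz12tu), so no coordinates are given.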

Additional observations from a re-analysis of the deposited data

Results flagged for a closer look

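In 9 of 68 groups of 5 libraries, over 34 genes of the rule, slc7a6os included, 1 library lay far from the other 4 on the log2(CPM + 1) scale by Dixon's test. Chance alone marks about 1 in 20 groups of normally distributed values. Groups near 0, such as those flagged for slc6a16b and slc32a1, are not of that kind, so 9 of 68 cannot be set against that share. AMCA-negative replicate 4 stood high for slc3a2a, at 6.94 CPM against 0 to 0.280 CPM in the others, and for slc15a2, at 14.6 CPM against 0 to 0.437 CPM. AMCA-negative replicate 1 stood high for slc43a3b, at 57.7 CPM against 0 to 1.50 CPM, and for slc6a16b, at 0.280 CPM, a single count, against 0 in the others. AMCA-negative replicate 5 stood high for slc1a4, at 37.7 CPM against 0 to 0.188 CPM. AMCA-negative replicate 3 held slc43a2a at 0 CPM, against 50.4 to 246.8 CPM in the others. Among AMCA-positive libraries, replicate 4 was high for slc7a3 at 283 CPM, against 103 to 137 CPM. Replicate 3 was high for slc32a1 at 0.882 CPM, against 0 to 0.153 CPM, and replicate 1 was low for slc6a13 at 18.2 CPM, against 34.9 to 44.2 CPM.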

How the results depend on the processing

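Of the 11 calls, 8 held without each library in turn, and slc38a5b, slc3a2b and slc6a6b did not. Without 1 library, 5 to 8 carriers were higher and 3 to 4 lower, and over all genes 1035 to 1658 were higher and 473 to 702 lower. With DESeq2's Wald test 11 carriers and 2917 genes were higher, with more genes tested (11348), and slc3a2a had no adjusted p. With limma and quality weights 9 carriers and 2448 genes were higher (slc15a2, slc43a3b and slc7a5 gained, slc3a2b lost). A filter of 10 CPM in 5 libraries left 4 carriers and 676 genes higher, with 6505 genes tested. Under it slc38a3a and slc6a16b were not tested, and slc3a2b lost its call. In plate 1 alone, with fewer libraries, 0 carriers were higher and 0 lower, and 29 genes were higher and 34 lower. In plate 2 alone 2 carriers were lower. With neighbouring wells as a replicate block, 9 carriers were higher and 3 lower (slc38a5b and slc6a6b lost, slc43a3b, slc7a3 and slc7a8a gained). The labels do not say that neighbouring wells share a pool. DESeq2's size factors moved the median log2 fold change of all genes from 0.51 to 0.66 and added slc7a3.

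Among the named genes and these alternatives, signs turned only for genes that did not pass; the values are log2 fold changes. For slc7a6os they were 0.49 with quality weights and 0.11 with the replicate block. For slc15a4 they were 1.77, 1.30 and 0.17 (quality weights, replicate block, plate 1), 1.65 without AMCA-negative replicates 3 and 4, and -0.87 to 0.80 without 1 library. For slc17a5 they were -1.10 (no plate term), -1.74 (plate 2) and -0.78 to 2.75 without 1 library. For abat they were -0.65, -1.11 and -0.19 to 2.39 under the same settings. For gamt they were 1.34 (quality weights), 0.87 (replicate block), 1.00 (without AMCA-negative replicates 3 and 4) and -0.73 to 0.35 (without 1 library). For slc1a4 they were -1.01 (no plate term), -1.51 (plate 2), -0.41 (without AMCA-negative replicates 3 and 4) and -0.57 to 5.67 (without 1 library). For slc38a4 they were -0.00062 (quality weights), -1.24 (plate 1), -0.74 (without AMCA-negative replicates 3 and 4) and -0.42 to 0.34 (without 1 library). For slc38a6 they were 0.22, 0.096 and 0.00057 (quality weights, replicate block, plate 2) and -1.08 to 0.27 (without 1 library). For slc38a7 they were 0.57 and 0.088 (quality weights, replicate block) and -1.32 to 0.32 (without 1 library). For slc17a9b it was -0.28 in plate 2. In plate 1 they were -0.019 for slc43a2a, -0.13 for cndp2 and -0.70 for gss. In 4 pairs the ratios of the groups did not overlap. Their tests therefore had to give the smallest possible p within plates and without each library, which is no check of them. The ratio test of slc43a2a to slc43a2b was lost within plates and in 9 of 10 cases without 1 library (exact permutation p adjusted over 5 pairs up to 0.0952). In the case that held, AMCA-negative replicate 3 was left out. That library had no count of either gene, so the 0.5 added to each count set its ratio at 0. Why it had no count of either was not tested. The 24 carriers with counts that were not tested reached the edgeR filter's level in too few libraries, and totals alone did not set this. Untested slc7a4 had 310 counts, 234 of them in AMCA-negative replicate 4. Tested slc6a11a had 61 AMCA-positive and 51 AMCA-negative counts.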
